A study of Mus musculus with 4 samples.

Results

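Metallothioneins are small, cysteine-rich proteins that bind zinc and copper, and the 5 genes described here are the metallothionein genes Mt1, Mt2 and Mt3, the zinc-sensing transcription factor gene Mtf1 and the zinc exporter gene Slc30a1. They were taken by gene symbol from 19938 genes on Affymetrix Mouse Gene 1.0 ST arrays. The set was chosen by the measured difference between the vectors in the response of Mt3, on these same arrays, so the values of the members are a description, with no test. Each member had 1 probe set, and all 5 exceeded, on all 4 arrays, a floor of 4.25 (log2; the 95th percentile of olfactory and vomeronasal receptor probe sets, genes of sensory neurons), as did 13561 genes on at least 1 array.

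The cells were RAW264.7, a mouse macrophage-like line. RANKL, the ligand that drives osteoclast formation, given with the macrophage growth factor M-CSF, turns these cells into osteoclasts, which resorb bone. The 4 groups were cells with a control vector, unstimulated or after 72 h with RANKL and M-CSF, and cells with a vector expressing miR-155, unstimulated or after the same 72 h. The series text calls the control cells wild-type, gives 20 ng/ml as the dose, leaves unsaid whether each cytokine had that dose, and does not say whether the vectors were carried by 1 clone or a pool. Each group has 1 array made from 100 ng of total RNA, so differences carry no p-value and no check by replicates, and precision is limited by how few arrays there are. As a reference for scatter among dim probe sets, the bounds that held 95% of the absolute log2 differences of the receptor probe sets are used: 0.48 for stimulation with the control vector, 0.41 for stimulation with the miR-155 vector, 0.37 for the vectors without stimulation, 0.47 for the vectors with it and 0.64 for the difference of the responses. This noise reference is not a replicate error.

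In mammalian cells Mtf1 senses free zinc, binds metal response elements in DNA and switches on Mt1, Mt2 and Slc30a1. Mt1 and Mt2 encode the widespread zinc-buffering metallothioneins, whose genes also answer to glucocorticoids and oxidative stress. Mt3, best known from the brain as growth inhibitory factor, is less responsive to metals. Slc30a1 encodes ZnT1, which carries zinc out across the plasma membrane, and Mt4 is a metallothionein of stratified epithelia.

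The sequences upstream of 4 of the genes are shown because Mtf1 acts through short DNA motifs there, and Mt3, with the widest range over the arrays, can be set beside the genes usually placed under Mtf1. They are the 250 bases before the RefSeq start (GRCm38.p6, all on the plus strand), at chr8:94178839-94179088 for Mt1, chr8:94172368-94172617 for Mt2, chr8:94152357-94152606 for Mt3 and chr1:191906531-191906780 for Slc30a1. Capitals mark the metal response element letters TGCACNC or TGCGCNC on either strand, and no 2 matches overlap.
Mt1: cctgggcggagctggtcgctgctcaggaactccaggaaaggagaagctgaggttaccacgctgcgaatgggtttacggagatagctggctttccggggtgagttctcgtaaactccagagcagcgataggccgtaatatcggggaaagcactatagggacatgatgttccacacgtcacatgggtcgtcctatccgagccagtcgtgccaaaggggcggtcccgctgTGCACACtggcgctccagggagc
Mt2: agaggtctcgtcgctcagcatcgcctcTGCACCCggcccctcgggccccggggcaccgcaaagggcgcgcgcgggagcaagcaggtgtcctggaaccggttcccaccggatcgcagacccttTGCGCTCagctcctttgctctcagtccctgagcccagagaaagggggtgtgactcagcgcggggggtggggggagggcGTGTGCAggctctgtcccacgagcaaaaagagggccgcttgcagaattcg
Mt3: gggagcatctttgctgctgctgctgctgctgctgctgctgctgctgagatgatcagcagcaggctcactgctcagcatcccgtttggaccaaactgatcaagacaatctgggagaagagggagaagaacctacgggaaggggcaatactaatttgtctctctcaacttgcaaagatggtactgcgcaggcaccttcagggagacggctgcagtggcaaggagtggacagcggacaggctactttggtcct
Slc30a1: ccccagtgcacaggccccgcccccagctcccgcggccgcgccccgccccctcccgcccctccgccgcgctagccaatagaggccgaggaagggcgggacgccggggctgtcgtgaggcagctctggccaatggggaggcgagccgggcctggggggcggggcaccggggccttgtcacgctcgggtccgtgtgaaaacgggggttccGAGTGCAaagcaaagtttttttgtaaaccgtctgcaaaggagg

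The Mt2 stretch held 3 matches to the metal response element letters, at 223 to 217, 128 to 122 and 50 to 44 bases before the start. Mt1 held 1 match, at 23 to 17 bases before the start, and Slc30a1 held 1, at 43 to 37. Neither the Mt3 nor the Mtf1 stretch held these letters in this window, and Mt4 held 1 match. Of 32851 RefSeq windows of the same length, 21.4% held at least 1 match and 1.26% held 3 or more, so a single match is common. Within the 50 bases after the start, Mt1 held 2 further matches and Mt2, Mt3 and Slc30a1 held 1 each, the one of Mt3 at 28 to 34 bases after the start. The antioxidant response element letters TGACNNNGC, searched on both strands, were found once upstream of Mt2 and once upstream of Slc30a1 and in 10.2% of all windows. The letters of the glucocorticoid response element, also searched on both strands, were found at 94 to 82 bases before the start of Mt1 and in 0.387% of all windows. These matches are letters, not measured binding. The windows follow the RefSeq start, which was not checked against measured transcription starts. The counts, those of Mt1 among them, are thus of these windows and not of whole promoters.

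**Figure D1:**
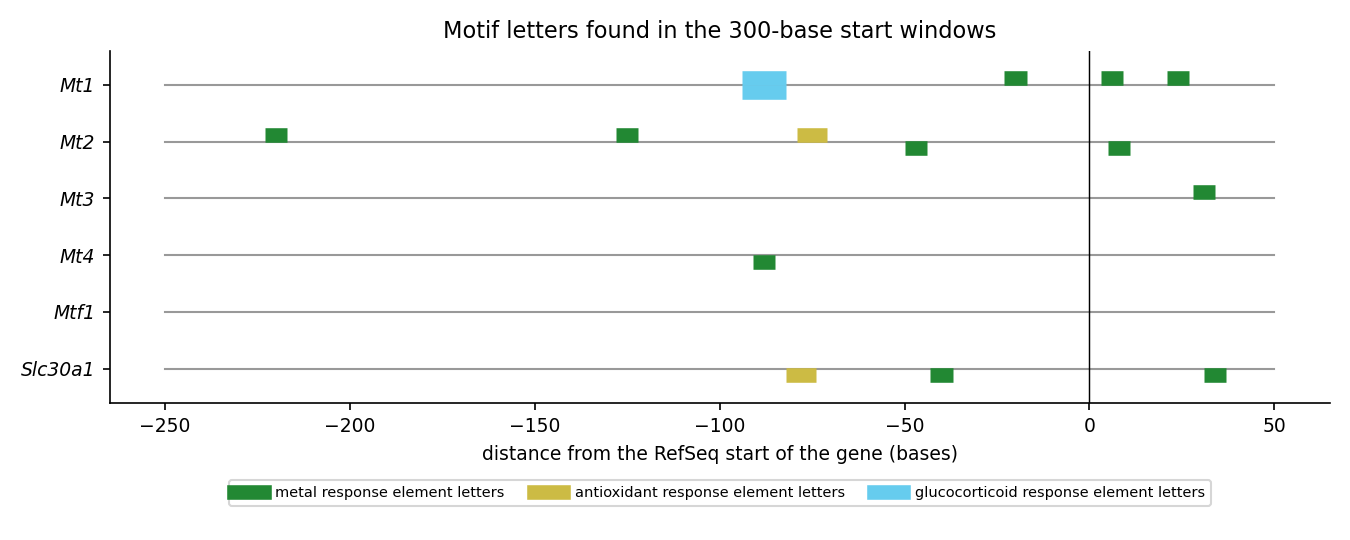
Position of motif letters in the windows around the RefSeq start of Mt1, Mt2, Mt3, Mt4, Mtf1 and Slc30a1; the x axis is the distance from the start in bases, from 250 before to 50 after, with marks above the line for the gene's strand, below it for the other strand and across it for both. Mt2 carries 3 metal response element matches before the start and Mt3 carries none there.

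The other sequence of the study is the microRNA that the vector expresses. The labels do not name an arm. The arm that accounts for most known miR-155 activity is printed from RefSeq with its seed, bases 2 to 8, in capitals. Which arm the cells made from the vector was not tested.
mmu-miR-155-5p: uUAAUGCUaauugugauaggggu

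Mt3 differed most among the members. Its log2 level was 6.61 in unstimulated control cells, 10.95 in stimulated control cells, 6.24 in unstimulated miR-155 cells and 6.79 in stimulated miR-155 cells. The stimulated control array was thus far above the other 3, which spanned 0.55. Mt3 was 20.4-fold higher with stimulation in control cells (log2 4.35) and 1.47-fold higher in miR-155 cells (0.55, against a noise reference of 0.41). Of all genes above the floor, 22 had a higher difference than Mt3 in control cells. Those 22 genes had a median difference of 2.93 in miR-155 cells, 20 of them were past 2-fold there, and 1 had a smaller difference there than Mt3. With values below the floor set to the floor, 21 genes had a higher difference than Mt3 in control cells, and 20 of them were past 2-fold in miR-155 cells.

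Mt2 had the next widest range of the metallothioneins. Its log2 level was 10.26 in unstimulated and 11.30 in stimulated control cells, and 10.52 and 10.75 in unstimulated and stimulated miR-155 cells. The stimulated control array was highest and the unstimulated control array lowest. Stimulation came with a 2.07-fold higher value in control cells (log2 1.05) and a 1.18-fold higher value in miR-155 cells (0.24, within the noise reference). With the arrays centred on the receptor probe sets the control value was 0.93, under 2-fold.

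Mt1 moved least among the metallothioneins of the set. Its log2 level was 11.38 in unstimulated control, 11.85 in stimulated control, 11.26 in unstimulated miR-155 and 11.35 in stimulated miR-155 cells. The 3 arrays other than the stimulated control array lay within 0.12 of each other. The difference with stimulation was 0.47 (1.38-fold) in control cells, inside the noise reference of 0.48, and 0.10 in miR-155 cells. Mt1 and Mt2 are close paralogs, and whether their probes, or those of Mt3, read each other's transcripts was not tested.

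Mtf1 and Slc30a1, the sensor and the exporter, shared a shape over the arrays. Mtf1 had log2 levels of 6.44, 7.10, 6.40 and 6.42 in unstimulated control, stimulated control, unstimulated miR-155 and stimulated miR-155 cells. Slc30a1 had 6.92, 8.13, 6.79 and 6.85 in the same order. For both genes the stimulated control array was above the other 3 arrays, which lay within 0.03 of each other for Mtf1 and within 0.13 for Slc30a1. With stimulation Mtf1 was 1.58-fold higher in control cells (log2 0.66) and Slc30a1 2.31-fold higher (1.21), while in miR-155 cells the differences were 0.02 and 0.06, within the noise reference. With the arrays centred on the receptor probe sets the control value of Mtf1 was 0.55, under 1.5-fold. Mt4, the remaining gene of the family, stayed between 4.54 and 4.71 on the 4 arrays, near the floor, and was lowest on the stimulated control array.

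**Figure D2:**
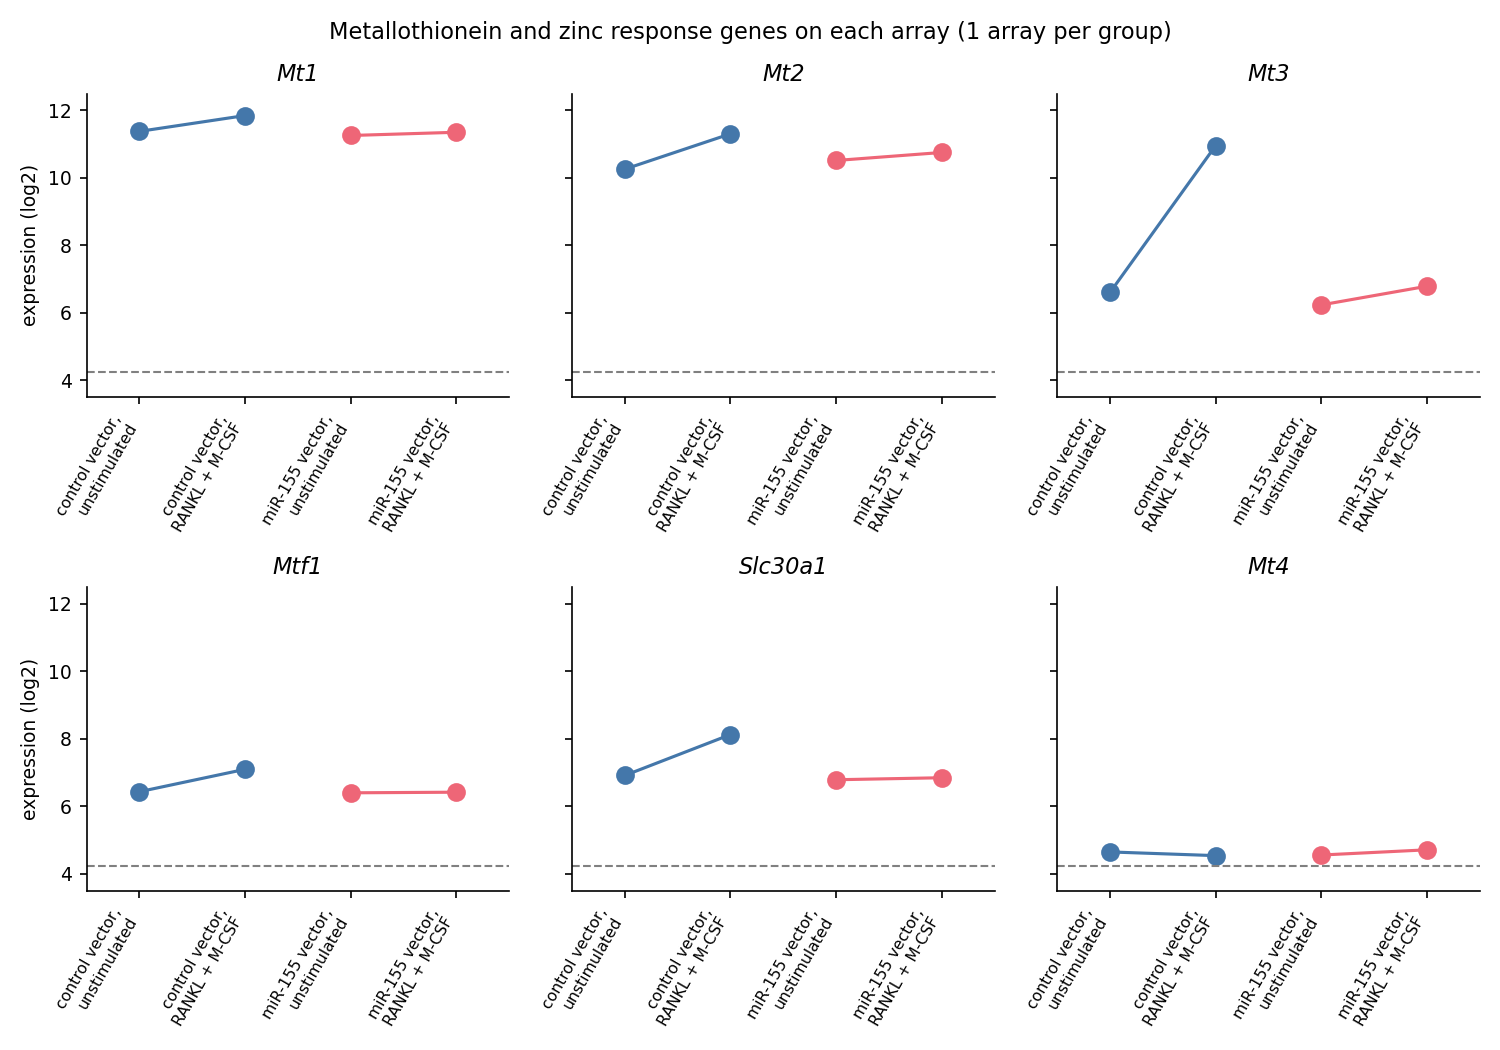
Log2 expression (y axis) of Mt1, Mt2, Mt3, Mtf1, Slc30a1 and Mt4 on each of the 4 arrays (x axis; blue, control vector; red, miR-155 vector; 1 array per point, so no error bars), with the floor of 4.25 as a dashed line. The stimulated control array is the highest for the 5 members, by 4.16 (log2) over the next array for Mt3, and not for Mt4.

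Set against all genes, 3 of the 5 members (Mt2, Mt3 and Slc30a1) were more than 2-fold higher with stimulation in control cells, where 5.73% of genes above the floor were. In the same comparison 4 of 5 were past 1.5-fold higher, against 12.3% of genes (15.1% were lower by as much and 6.92% lower by 2-fold), and the median of the members was 1.05, against -0.02 over all genes. None of the 5 was past 1.5-fold in miR-155 cells, where 3.43% of genes were higher and 3.73% lower by that much and 1.15% were past 2-fold higher, and the median of the members was 0.10, against -0.03. The rule used the contrast of Mt3, and nothing is read from these shares. The stimulated control array was the highest of the 4 for all 5 members and for 35% of genes, and it lay more than 1.5-fold above each other array for Mt3, Mtf1 and Slc30a1 and for 9.03% of genes. It was also the array least like the others: over genes above the floor its Pearson correlations with them were 0.908 to 0.937, against 0.982 to 0.989 among the other 3 arrays. Every high value of a member rests on that array. The response in miR-155 cells and the difference between unstimulated arrays do not use it, and in those the members lay between -0.37 and 0.55.

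**Figure D3:**
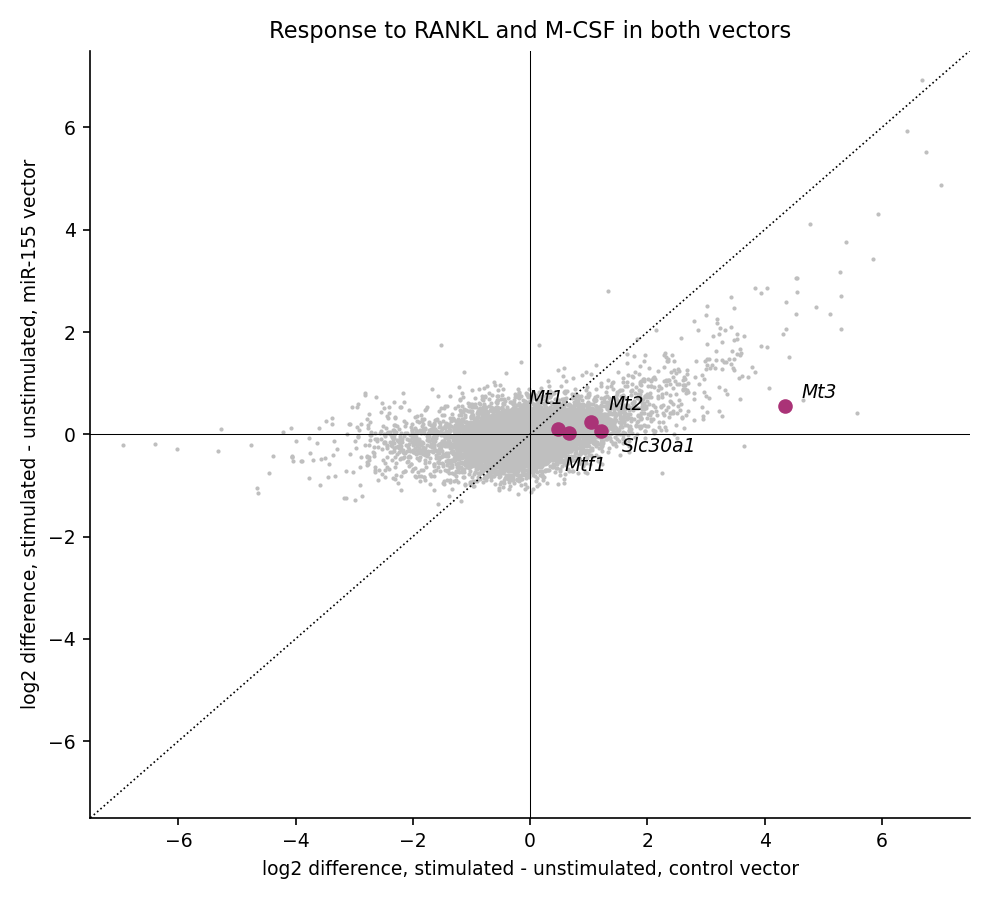
Log2 difference between stimulated and unstimulated arrays in control-vector cells (x axis) and miR-155 cells (y axis) for 13561 genes above the floor (grey) and the 5 members (purple); the dotted line marks equal differences. Mt3 lies at 4.35 and 0.55, and the other 4 members lie between 0.47 and 1.21 on the x axis and between 0.02 and 0.24 on the y axis.

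The vectors were then compared within each state. Without stimulation none of the 5 members was past 1.5-fold, where 4.32% of genes above the floor were. Mt3 was lower in miR-155 cells (-0.37), at the noise reference of 0.37, Mt2 was higher (0.26), and Mt1 (-0.12), Mtf1 (-0.03) and Slc30a1 (-0.13) differed less. With stimulation all 5 were lower in miR-155 cells, in a comparison where the median over all genes was -0.02 and a lower value was thus the commoner. Past 1.5-fold lower lay 3 of the 5, against 13.6% of genes, and 2 lay past 2-fold, against 5.55%. Mt3 was 17.9-fold lower (-4.16), Slc30a1 2.43-fold lower (-1.28) and Mtf1 1.60-fold lower (-0.68), while Mt2 (-0.55) and Mt1 (-0.50) lay just past the noise reference of 0.47. The stimulated control array enters this comparison as well as the response in control cells, so the values are not separate evidence. The value of Mt3 here is also part of the difference that chose the set, and nothing is read from these shares. A single gene, Akr1c18, had a more negative difference here than Mt3; it lay below the floor in stimulated miR-155 cells and was at least 28.7-fold lower there, taken against the floor.

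The difference of the responses, miR-155 minus control, was negative for each member. It was -3.80 for Mt3, -1.15 for Slc30a1, -0.81 for Mt2, -0.65 for Mtf1 and -0.37 for Mt1, against a noise reference of 0.64 and a median of -0.03 over all genes. With that median a negative sign was the commoner one over all genes, and nothing is read from the shared sign. Past 2-fold lay 2 of the 5, against 4.64% of genes with a negative difference of that size and 6.63% with a positive one, and 4 of the 5 lay past 1.5-fold, against 13.9%. Among all genes above the floor, only Akr1c18, Cd200 and Mmp14 (-3.89) were more negative than Mt3. The set was chosen by this difference of Mt3, so nothing is read from the rank of Mt3 or from these shares, which count it. Akr1c18 and Cd200 lay below the floor without stimulation, and with such values set to the floor their differences were -4.84 and -4.05. Past 2-fold higher in control cells lay 777 genes, of which 142, or 18.3%, were also past 2-fold in miR-155 cells and 500, or 64.4%, were not past 1.5-fold there, with a median of 0.42. Mt3 (0.55) lay above that median, and Mt2 (0.24) and Slc30a1 (0.06) lay below it.

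The genes whose 4 values, each less the mean of the gene, lay nearest to those of Mt3 were Cd200, Serpinb1a, Efr3b, Akr1c18 and Mmp14. Cd200, a surface glycoprotein that restrains myeloid cells, was the nearest at a distance of 0.32 and had log2 levels of 3.69, 8.35, 3.63 and 4.30 in unstimulated control, stimulated control, unstimulated miR-155 and stimulated miR-155 cells. Serpinb1a, an inhibitor of neutrophil proteases, had 3.77, 7.85, 3.75 and 4.65. Mmp14, a membrane matrix metalloproteinase, had 4.95, 8.60, 5.26 and 5.03. All 5 were highest on the stimulated control array, and Mt3 differed from Cd200, Serpinb1a and Akr1c18, a steroid-metabolising reductase, in being above the floor without stimulation. Likeness over 4 arrays is a description, and ranking by Pearson correlation in its place named none of the same 5 genes.

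Of the other 9 zinc exporters of the ZnT family, 8 lay above the floor. With stimulation in control cells none of the 8 was past 1.5-fold higher and 1, Slc30a5, was past 1.5-fold lower, against 12.3% and 15.1% of genes, and their median was -0.01, against -0.02. Slc30a5, which loads zinc into the secretory pathway, had log2 levels of 9.48, 8.53, 9.48 and 9.48 in unstimulated control, stimulated control, unstimulated miR-155 and stimulated miR-155 cells. It was thus lower on the array where Slc30a1 was higher, and nearly level on the other 3. Slc30a6 was at 0.47 and Slc30a4 at -0.48 in control cells, within the noise reference. None of the 8 was past 1.5-fold in miR-155 cells, where the median was -0.06, or between the unstimulated vectors, where it was -0.09. Over all genes 3.43% were higher and 3.73% lower by that much in miR-155 cells. Between the unstimulated vectors 4.32% were past 1.5-fold in either direction.

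Among the 14 importers of the ZIP family, 13 lay above the floor. In stimulated control cells Slc39a13 and Slc39a1 were past 2-fold higher, Slc39a6 was past 2-fold lower and Slc39a14 past 1.5-fold lower, with a median of 0.22. These 2 of 13 in each direction are near the shares over all genes, 12.3% higher and 15.1% lower by 1.5-fold. Between the stimulated arrays 5 of the 13 were past 1.5-fold lower in miR-155 cells, against 13.6% of genes. Past 1.5-fold higher were 2, with no share over all genes counted. The largest of these differences were those of Slc39a13 (-1.57), Slc39a1 (-0.98) and Slc39a6 (0.98). Slc39a13, an importer of intracellular membranes, had log2 levels of 7.70, 9.68, 7.94 and 8.11 in unstimulated control, stimulated control, unstimulated miR-155 and stimulated miR-155 cells. Slc39a1, a plasma membrane zinc importer, had 9.64, 11.26, 9.78 and 10.28. Both were highest on the stimulated control array and lowest on the unstimulated control array, which is also the order of Mt2. In the same order of arrays Slc39a6 had 8.43, 6.86, 8.05 and 7.84, lowest where these were highest. Slc39a14, which carries zinc, iron and manganese, had 7.67, 6.81, 7.99 and 7.51. In miR-155 cells none of the 13 was past 1.5-fold, where 3.43% of genes were higher and 3.73% lower by that much. Slc39a1 (0.49) and Slc39a14 (-0.47) were the furthest from 0 there. The difference of the responses was -1.81 for Slc39a13, -1.13 for Slc39a1 and 1.35 for Slc39a6, the importers past 2-fold. Over all genes 4.64% had a negative difference of that size and 6.63% a positive one.

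Metallothioneins also hold copper, and 11 of the 12 copper genes listed had a probe set naming 1 gene, all 11 above the floor. In stimulated control cells 5 were past 1.5-fold higher, against 12.3% of genes, and 2 lower, against 15.1%, with a median of 0.41. Cox17, a copper chaperone for cytochrome c oxidase, was higher by 2.05, the copper transporters Slc31a2 and Slc31a1 by 1.56 and 1.18, and the chaperone Atox1 by 1.01, while the copper pump Atp7a was at -0.70 and Commd1, a regulator of copper export, at -0.62. In miR-155 cells 2 of the 11 were past 1.5-fold higher, Slc31a2 (0.87) and Cox17 (0.80), against 3.43% of genes. The difference of the responses was past 1.5-fold negative for 4 of the 11, against 13.9% of genes: Atox1 (-1.32), Cox17 (-1.24), Slc31a1 (-0.72) and Slc31a2 (-0.69). It was past 1.5-fold positive for 2, Commd1 (0.90) and Atp7a (0.64), a direction whose share over all genes was not counted. Between the stimulated arrays 5 of the 11 were past 1.5-fold lower in miR-155 cells, against 13.6% of genes. Past 1.5-fold higher was 1, Commd1 (0.89), with no share over all genes counted. Without stimulation Slc31a2 (-0.91) and the metalloreductase Steap3 (-0.67) were lower in miR-155 cells.

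**Figure D4:**
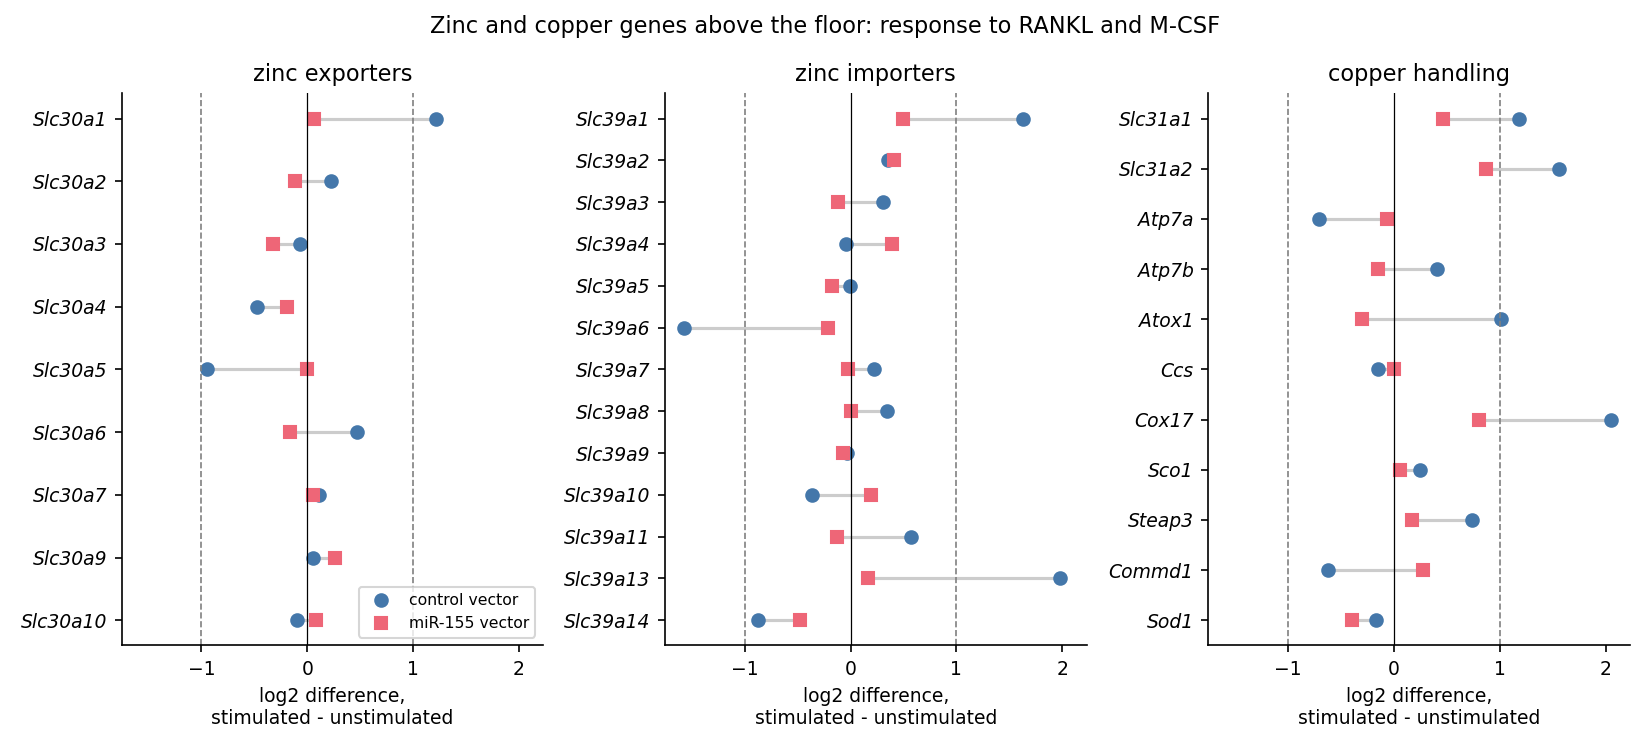
Log2 difference between stimulated and unstimulated arrays (x axis) for the 9 zinc exporters, 13 zinc importers and 11 copper genes above the floor (y axis); blue circles, control vector; red squares, miR-155 vector; dashed lines mark 2-fold. Slc30a1, Slc39a1 and Slc39a13 lie past 2-fold higher in control cells, Slc39a6 past 2-fold lower, and no zinc transporter lies past 2-fold in miR-155 cells.

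The 4 metallothionein genes sit side by side on chromosome 8, and the 5 protein-coding genes on each side were examined to see whether the region differed as a whole. In the RefSeq gene order Bbs2 comes next to Mt4 on one side and Nup93 next to Mt1 on the other. Of the 10 neighbours 9 had a probe set naming 1 gene, and all 9 lay above the floor. Nudt21 was read from 1 of 2 probe sets and Nlrc5 from 1 of 19, and whether these read this locus was not tested. In stimulated control cells their median was -0.31, with 1 of 9, Cpne2, past 1.5-fold higher, against 12.3% of genes, and 3 of 9, Nudt21, Bbs2 and Herpud1, past 1.5-fold lower, against 15.1%. Bbs2, part of a ciliary trafficking complex, had log2 levels of 5.69, 4.94, 4.92 and 5.14 in unstimulated control, stimulated control, unstimulated miR-155 and stimulated miR-155 cells, and Nup93, a nuclear pore protein, had 9.18, 8.69, 9.26 and 9.32. Neither gene next to the cluster was higher on the stimulated control array, where Mt3, Mt2 and Mt1 were at their highest. Cpne2, a calcium-dependent membrane-binding protein and the farthest neighbour on its side, was higher with stimulation in control cells (0.71) and lower in miR-155 cells (-0.45).

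**Figure D5:**
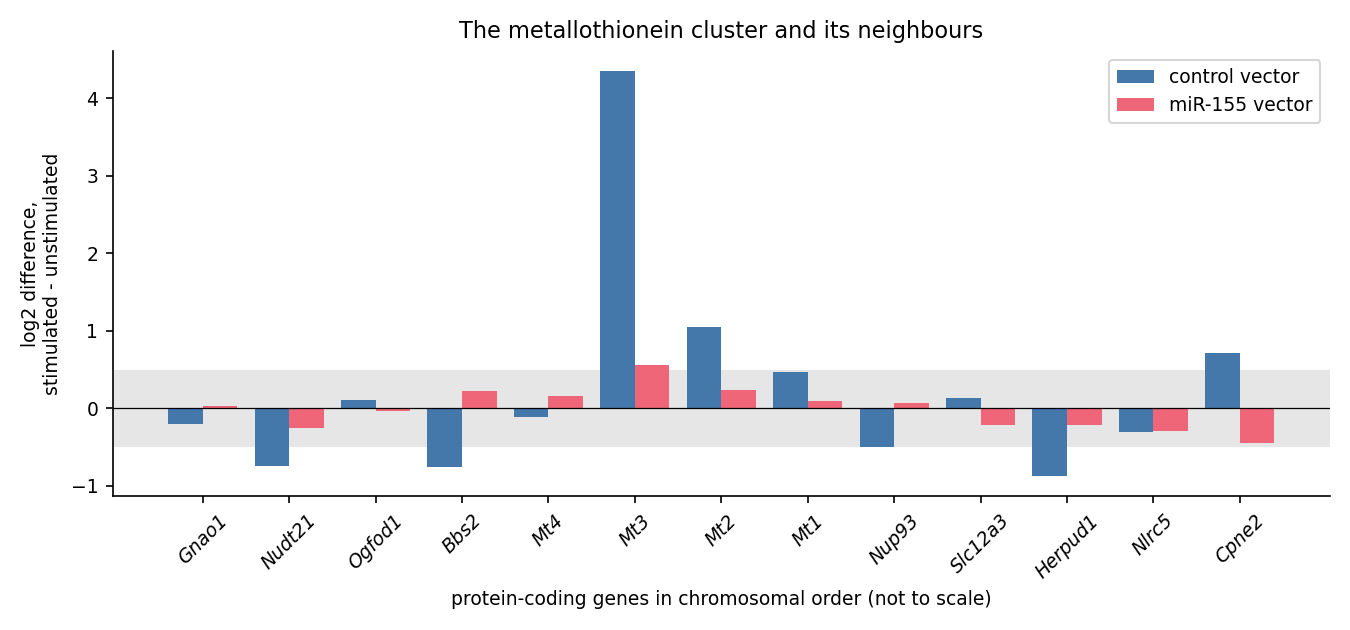
Log2 difference between stimulated and unstimulated arrays (y axis) for Mt1 to Mt4 and 9 neighbouring genes in chromosomal order (x axis, not to scale); blue bars, control vector; red bars, miR-155 vector; 1 array per group, so no error bars; the grey band is the noise reference of 0.48 for control cells. Mt3 reaches 4.35 in control cells, whereas the neighbours lie between -0.87 and 0.71.

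Other inputs known to act on metallothionein genes were listed. Of 9 glucocorticoid-responsive genes, all above the floor, 2 were past 2-fold higher, against 5.73% of genes, and 1 past 2-fold lower, against 6.92%, in stimulated control cells, with a median of -0.00. The phosphatase gene Dusp1 was higher by 2.25 and Tsc22d3, which encodes the leucine zipper GILZ, by 1.46, whereas the cochaperone gene Fkbp5 was lower (-1.44). In miR-155 cells none of the 9 was past 1.5-fold higher, against 3.43% of genes, and 2 were lower, against 3.73%, with a median of -0.21. Dusp1 was at -0.76, Per1, a clock gene, at -0.65 and Zbtb16 at -0.57, whereas Tsc22d3 was at 0.54. Zbtb16 lay below the floor in stimulated miR-155 cells (4.18). Of 10 heat shock and oxidative stress genes above the floor, 1 was past 1.5-fold higher, against 12.3% of genes, and 3 lower, against 15.1%, in stimulated control cells, with a median of 0.04. The heme oxygenase gene Hmox1 was at 0.47, within the noise reference, the cochaperone Dnajb1 at 0.67, the glutathione synthesis gene Gclc at -0.67, the cystine importer Slc7a11 at -0.73 and the chaperone Hsph1 at -1.29. In miR-155 cells none of the 10 was past 1.5-fold, where 3.43% of genes were higher and 3.73% lower by that much. Without stimulation Slc7a11 was lower in miR-155 cells (-1.45).

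Markers of cell state also differed on the stimulated control array, osteoclast markers upward and macrophage markers downward. All 9 osteoclast markers were past 2-fold higher in control cells (median 5.85), against 5.73% of genes. In miR-155 cells all but Calcr, 8 of 9, were past 2-fold higher, against 1.15%, with a median of 3.43 over the 9. Their summed linear level was 510, 34539, 394 and 10354 in unstimulated control, stimulated control, unstimulated miR-155 and stimulated miR-155 cells. Of 8 macrophage markers, 6 were past 2-fold lower in stimulated control cells, against 6.92% of genes, with a median of -4.22 over the 8. None was past 1.5-fold in miR-155 cells, where 3.43% of genes were higher and 3.73% lower by that much. Their summed level was 31415, 11338, 31011 and 26970 in the same order. Of the 11338 on the stimulated control array, Cd68, which was within the noise reference (0.29), made up 7950. The part of these cell state markers in the values of Mt3 was not tested. In a bulk RNA sample fewer cells of a type and less RNA per cell cannot be told apart. Markers of astrocytes and neurons, the cells in which Mt3 is best known, summed to 181 to 245 over 10 genes on the 4 arrays. Of these 10, 6 lay above the floor on at least 1 array, with 3 to 5 above it on any single array. Gfap, Aqp4, Tubb3 and Map2 stayed below it on all arrays. Aldh1l1, a folate enzyme, was past 2-fold higher in stimulated control cells (1.12), the only 1 of the 6 past 1.5-fold there. The 8 fibroblast and osteoblast markers on the array summed to 212 to 223 and the 7 T and B cell markers to 111 to 119, with Dcn (1.56 in stimulated control cells, from a level below the floor) the only one of both lists past 1.5-fold in that comparison.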

How the data were processed

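The authors deposited 1 log2 value per probe set on each array. RMA and Partek appear in the submitters' processing notes, their versions and the build being not given in the sources used here. Sorted, the 4 columns differed by at most 0.218, as after quantile normalization, which hides any change in the RNA content of a cell. The platform annotation gave 1 symbol to 21789 of 35557 probe sets, several to 1621 and none to 12147; 21698 of the first had their gene ID in RefSeq (GRCm38.p6), and 0 symbols changed. A gene with several probe sets was read from that of highest mean. The floor used 1212 receptor probe sets. Differences of log2 values were taken and counted past 1.5-fold and 2-fold, with no test. The counting code was run on simulated data with large differences added to bright genes and little scatter. That run checks the code and not the counts on these arrays. The members and lists were chosen with earlier results of these data known. Named were the members and Mt4, up to 3 genes above the floor per list and comparison by absolute difference, the genes next to the cluster and the 5 genes most like Mt3 by Euclidean distance; Atp7a, Calcr, Hmox1, Gfap, Aqp4, Tubb3 and Map2 were added after their values were seen. Promoters and the microRNA are from RefSeq. Python 3.11.15, numpy 2.4.6, pandas 2.3.3 and matplotlib 3.10.9 were used.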

Additional observations from a re-analysis of the deposited data

Results flagged for a closer look

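Among members and listed genes above the floor, 2 had responses in opposite directions in the vectors, each past its noise reference; with 1 array per group the difference was not tested. Dusp1, a phosphatase gene answering to glucocorticoids and many other signals, was higher by 2.25 with stimulation in control cells and at -0.76 in miR-155 cells, a difference of the responses of -3.01. Cpne2, a neighbour of the metallothionein cluster, was at 0.71 and -0.45, a difference of -1.16. None of the 5 members was opposite in this sense.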

How the results depend on the processing

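No paired analysis was possible because each group has 1 array, and for the same reason no array could be left out of a comparison. The 5 differences of the 5 members were recomputed under 7 alternatives, 175 values in all, and 2 changed sign, both of Mtf1 differences within the noise reference. Averaging probe sets, dropping the filter, flooring low values and raising the floor to the 99th percentile (5.17) could not change a member value. Each member had 1 probe set and lay above that floor on every array. Only renewed quantile normalization and centring on the gene or receptor median could move the members, so the 175 overstates what was tried. Centring the arrays on the receptor probe sets shifted the median control response of all genes by -0.11 and took Mt2 (0.93) under 2-fold and Mtf1 (0.55) under 1.5-fold in control cells; the difference of the responses of Mtf1 became -0.57, inside 1.5-fold and inside the noise reference. The same centring put Mt3 without stimulation (-0.41) past the noise reference and Mt1 with stimulation (-0.46) inside it, and renewed quantile normalization put the control response of Mt1 (0.52) past it. The Mt3 response ranged from 4.24 to 4.40 in control cells and from 0.52 to 0.56 in miR-155 cells. On linear values the difference of the responses of Mt3 was -1852, in intensity units. By Pearson correlation 0 of the 5 genes most like Mt3 were shared with the distance. Counts of genes past 2-fold stayed within 1.5 times under every alternative. Dim genes such as Mt4 are limited by signal near the floor.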
